A study of Mus musculus with 4 samples.

Results

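The S100 genes measured here were 10 members of the family of small EF-hand calcium-binding proteins, S100a1, S100a4, S100a6, S100a8, S100a9, S100a10, S100a11, S100a13, S100a14 and S100a16, found by symbol among the 31053 genes of each of 4 single-cell count tables. The list was set by gene name, with earlier results of these data known, and all 10 were present in each table. The tables held 7 other S100 genes that are not on the list. All cells were sorted as EPCAM+ from the P2-Runx1:RFP reporter line, where red fluorescent protein (RFP) is made from the proximal P2 promoter of one Runx1 allele while the other allele stays wild type. The adult mice were ICR (CD-1) males of more than 8 weeks, either intact or castrated for more than 4 weeks. Their anterior (AP), dorsolateral (DLP) and ventral (VP) prostate lobes were sorted into RFP+ and RFP- cells, tagged with lipid barcodes (MULTI-seq) and loaded as 3 runs, each from its own pool of mice. A further library held explants of the embryonic urogenital sinus, the tissue from which the prostate buds, taken at E15.5 from the same reporter line and grown in 10 µM dihydrotestosterone (DHT), with 1 pool of explants for each of days 0, 1, 3 and 6. The fluorescence gate reads the P2 promoter on 1 allele, so RFP- cells are not cells without Runx1.

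The 3 adult runs held 2612, 6034 and 3028 cell barcodes with 35051876, 86381807 and 40087244 unique transcript molecules (UMIs), and the explant library held 7474 barcodes with 121090404 UMIs. After filtering and assignment to a single lipid barcode, 824, 2194, 1673 and 5198 cells were left, with medians of 13055, 10618.5, 9750 and 14784.5 UMIs. Pairs of libraries shared between 0 and 6 cell barcodes. Runs 1 and 2 were sequenced on another instrument than run 3 and the explants. The lipid barcode of intact DLP RFP+ cells failed in runs 1 and 2, so that population was measured in run 3 alone. Castrated lobes were kept apart in run 2 alone. Runx1, the gene behind the sort, followed the labels in luminal-like AP cells, at 76.7, 146.5 and 106.4 CPM (UMIs of a gene scaled to 1000000 per sum of cells) in RFP+ sums of runs 1, 2 and 3 and at 12.96, 14.06 and 2.71 in RFP- sums (log2 difference 3.14, edgeR quasi-likelihood test, adjusted p = 0.000628). The Runx1 difference was smaller in luminal-like VP cells (1.28, edgeR adjusted p = 0.197) and basal-like AP cells (0.50), and passed the same test in neither.

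S100 proteins are small, mostly dimeric calcium sensors: on binding calcium they open a hydrophobic face and dock onto partner proteins, inside cells at membranes and the cytoskeleton or, once released, at cell surface receptors. S100A10 is the exception that needs no calcium, and forms a tight complex with annexin A2 that also binds the scaffold AHNAK at the plasma membrane. S100A11 pairs with annexin A1, and S100A6 (calcyclin) binds annexins and the ubiquitin-ligase adaptor CACYBP. S100A14 and S100A16 are known mainly from epithelia, S100A1 from calcium handling in muscle, and S100A13 from the release of FGF1. S100A4 acts on non-muscle myosin (MYH9) and is abundant in leukocytes and fibroblasts, while S100A8 and S100A9 form calprotectin, a major cytosolic protein of neutrophils and a ligand of TLR4. The prostate epithelium these genes were measured in has an outer layer of basal cells and an inner layer of luminal cells.

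All 10 members lie on mouse chromosome 3 (GENCODE vM21, GRCm38) as protein-coding genes. S100a1 (chr3:90511034-90514392, minus strand), S100a13 (chr3:90514435-90524581, plus), S100a14 (chr3:90526856-90528837, plus), S100a16 (chr3:90537254-90543151, plus), S100a4 (chr3:90603771-90606045, plus), S100a6 (chr3:90612882-90624181, plus), S100a8 (chr3:90668978-90670035, plus) and S100a9 (chr3:90692632-90695721, minus) share a stretch of 184.7 kb. S100a11 (chr3:93520488-93526287, plus) and S100a10 (chr3:93555080-93564643, plus) form a separate pair of 44.2 kb, and the 2 stretches together span 3053.6 kb. In basal-like cells S100a4, which lies between S100a16 and S100a6, was at a mean of 0.432 CPM, where S100a16 was at 309 and S100a6 at 1157.

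Because the cells were sorted by a Runx1 promoter, the 250 bases before each RefSeq start (GRCm38.p6) were searched on both strands for TGTGGT and TGCGGT, letters that RUNX proteins are known to bind, and for TGANTCA, the AP-1 letters. The 3 windows that held more than 1 match are shown, 5′ to 3′ on the gene's strand, with the matches in capitals. The windows are chr3:90612644-90612893 for S100a6, chr3:93520246-93520495 for S100a11 and chr3:90540896-90541145 for the second annotated start of S100a16, all on the plus strand, and the last lies inside the gene, downstream of its first start.
S100a6: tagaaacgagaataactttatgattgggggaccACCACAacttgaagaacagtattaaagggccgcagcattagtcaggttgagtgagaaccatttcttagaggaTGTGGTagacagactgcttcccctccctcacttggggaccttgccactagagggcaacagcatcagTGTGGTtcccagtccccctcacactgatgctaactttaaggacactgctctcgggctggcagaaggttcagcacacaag
S100a11: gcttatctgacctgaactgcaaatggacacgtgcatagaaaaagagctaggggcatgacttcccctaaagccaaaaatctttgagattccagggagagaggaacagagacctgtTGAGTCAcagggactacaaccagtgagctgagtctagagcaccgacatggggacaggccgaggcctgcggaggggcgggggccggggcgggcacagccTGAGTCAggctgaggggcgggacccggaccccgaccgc
S100a16 second start: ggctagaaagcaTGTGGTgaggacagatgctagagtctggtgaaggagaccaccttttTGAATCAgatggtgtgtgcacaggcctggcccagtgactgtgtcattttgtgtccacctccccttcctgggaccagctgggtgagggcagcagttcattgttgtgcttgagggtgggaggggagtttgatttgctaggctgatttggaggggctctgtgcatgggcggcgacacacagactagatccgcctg

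The S100a6 window held TGTGGT or its reverse complement ACCACA 3 times, with first letters 217, 145 and 79 bases before the start. Of 32851 promoter windows, 14% held at least 1 such match and 0.113% held at least 3. The S100a11 window held the AP-1 letters 136 and 38 bases before the start, and 6.75% of windows held at least 1 such match and 0.338% at least 2. The second start of S100a16 had TGTGGT 238 and an AP-1 match 192 bases before it. Among the other members, S100a1 had ACCGCA 191 bases before its start (5.1% of windows held TGCGGT or its reverse complement) and S100a9 had ACCACA 64 bases before its start. S100a13, S100a4, S100a8 and the first start of S100a16 had none of these letters in the window. These are letter matches in a window and not measured binding.

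Cells were clustered with all S100 genes left out of the clustering genes, and clusters were named from marker lists. This gave 1482 basal-like cells and luminal-like cells of 5 kinds: 494 cells of the Lum-D-like class (led by Psca and Krt4), 573 Lum-A-like, 396 Lum-B-like, 74 of the Lum-C-like class and 465 of the Lum-E/F-like class, the last mostly from castrated mice. A further 383 hematopoietic-like, 118 fibroblast-like and 86 adult mesonephric-like cells and 620 cells in unnamed clusters were set aside. Levels are CPM in the summed cells of a run, with library sizes scaled by TMM, and are given for intact mice in runs 1, 2 and 3. The clusters come from the same cells, so the class levels are a description with no test.

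The annexin-binding members S100a6, S100a10 and S100a11 were high in Lum-D-like and basal-like cells and low in Lum-A-like cells and the Lum-B-like and Lum-C-like classes. The 11 intact Lum-E/F-like cells of run 3 were not low, with S100a6 at 1756, S100a10 at 309.9 and S100a11 at 611.3 CPM. S100a6 stood at 2181, 6370 and 4279 CPM in Lum-D-like cells and at 909.9, 1093 and 1469 in basal-like cells. In Lum-A-like cells S100a6 stood at 55.3, 74.4 and 37.3, and in Lum-B-like cells at 106.5, 45.2 and 13.03. The 3 Lum-D-like values lay above every basal-like value, and every basal-like value above every Lum-A-like or Lum-B-like value. At 4000 UMIs per cell, to which cells were thinned because Lum-A-like cells had a median of 48145 UMIs and Lum-D-like cells 11120, 95.2% of Lum-D-like, 79.7% of basal-like and 3.88% of Lum-A-like cells held an S100a6 UMI (96.9%, 89.0% and 25.2% unthinned, with 20, 43 and 9 cells left out as shallower). S100a6 was also abundant outside the basal-like and luminal-like classes. Its mean was 4919 ± 2417 (SD, n = 3 runs) in fibroblast-like cells and 2090 ± 1111 in adult mesonephric-like cells.

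S100a11 was likewise highest in Lum-D-like cells, at 1263, 1599 and 1106 CPM against 390.9, 472.0 and 498.4 in basal-like cells. Its mean was 199 ± 8.70 in Lum-A-like and 58.0 ± 24.6 in Lum-B-like cells (SD, n = 3 runs), so that the basal, Lum-A-like and Lum-B-like ranges did not overlap. S100a10 had the other order, for it stood at 935.9, 976.3 and 1191 in basal-like cells and at 829.9, 782.1 and 610.7 in Lum-D-like cells, and these ranges did not overlap either. S100a10 means were 83.6 ± 20.2 in Lum-A-like cells, 27.5 ± 31.8 in the Lum-B-like class and 53.2 ± 62.6 in the Lum-C-like class (the last over 2 runs), and these overlapped.

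The epithelial members S100a14 and S100a16 differed from each other in the same cells. S100a14 was at 322.0, 261.4 and 146.7 CPM in Lum-D-like cells and at 77.5, 36.0 and 32.8 in basal-like cells, and its means in Lum-A-like to Lum-C-like cells lay between 3.85 and 13.4. S100a16 overlapped between basal-like (311.1, 273.4 and 343.3) and Lum-D-like cells (301.1, 285.0 and 203.9). It stood at 155.0, 104.1 and 79.1 in Lum-A-like and at 64.4, 35.9 and 33.7 in Lum-B-like cells, below both.

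S100a1, the calcium-handling member of muscle, was at 277.3, 280.8 and 247.4 CPM in Lum-D-like cells and at 77.2, 84.3 and 99.2 in basal-like cells, which overlapped with Lum-A-like cells (68.0, 92.8 and 79.9). Lum-B-like cells were lowest, at 33.0, 34.9 and 35.9. S100a13 overlapped between Lum-D-like (55.1, 103.3 and 99.0) and basal-like cells (40.8, 87.2 and 100.4) and was at 8.6, 18.1 and 21.2 in Lum-A-like and 4.1, 5.9 and 8.7 in Lum-B-like cells. By their means, 5 of the 10 members (S100a1, S100a6, S100a11, S100a13 and S100a14) were highest in Lum-D-like cells among the basal-like and Lum-A-like to Lum-D-like classes. Lum-B-like cells had a lower mean than basal-like and Lum-D-like cells for 7 of the 7 members that passed the count filter.

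**Figure D1:**
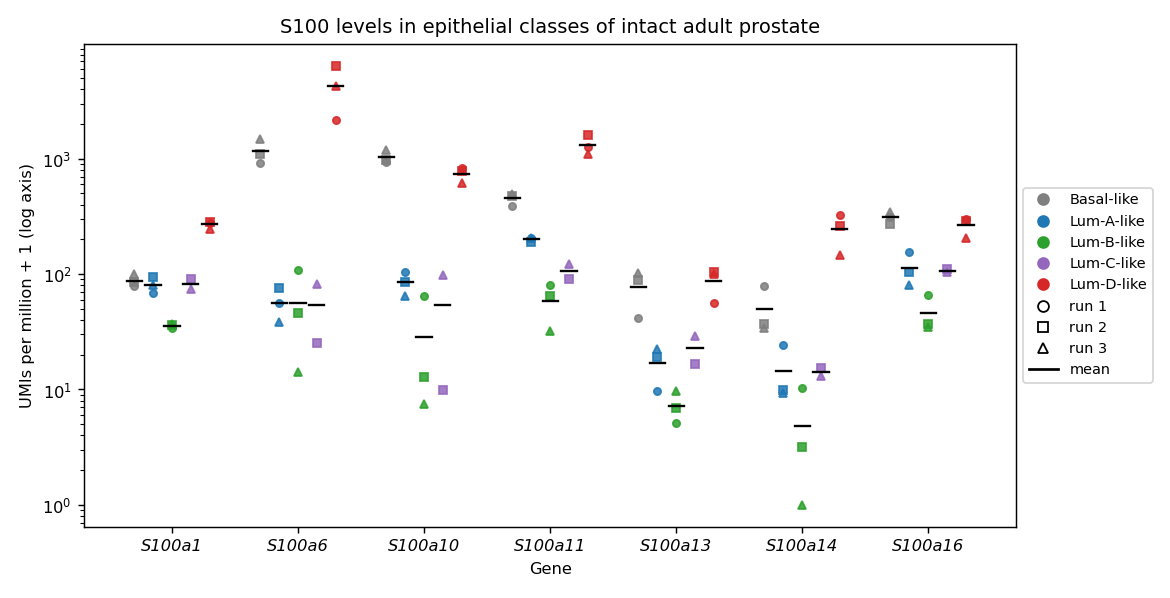
Levels of 7 S100 genes in 5 epithelial classes of intact mice. The vertical axis is CPM plus 1 on a log scale, each marker is a run and the black line is the mean. The Lum-D-like points of S100a6 lie between 2181 and 6370 CPM and those of Lum-A-like cells between 37.3 and 74.4.

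S100a4, S100a8 and S100a9, the members best known from leukocytes, were at or near 0 in the epithelium. S100a4 had means of 0.432 ± 0.164 CPM in basal-like and 1.53 ± 0.515 in Lum-D-like cells (SD, n = 3 runs). In hematopoietic-like cells it stood at 265.8, 329.4 and 52.6, and in fibroblast-like cells at 11.5, 62.2 and 35.3. At 4000 UMIs per cell, 38.1% of hematopoietic-like cells (unthinned 43.6%, median depth 6818 UMIs) and 0.175% of basal-like cells (unthinned 0.589%, median depth 9617.5 UMIs) held an S100a4 UMI. S100a8 did not pass a mean of 0.943 in any class and S100a9 none above 0.104. Over all barcodes, before any filter, S100a8 had 5, 119 and 6 UMIs in the 3 adult runs and 3 in the explants, and S100a9 had 7, 119, 0 and 0. The 3 genes were left out by the count filter in every comparison.

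The first comparison set the RFP+ gate against the RFP- gate in luminal-like AP cells and asks whether cells with an active Runx1 P2 promoter carry other S100 levels than their neighbours in the same lobe. S100a6 was at 1778, 3613 and 3697 CPM in the RFP+ sums and at 243.6, 632.2 and 8.1 in the RFP- sums. S100a10 was at 695.3, 539.0 and 507.7 against 87.1, 48.2 and 1.4, and S100a11 at 1012, 1153 and 938.8 against 170.0, 140.8 and 44.6. Every RFP+ value of these 3 genes lay above every RFP- value. They were higher in RFP+ cells by 9.55-fold for S100a6 (log2 difference 3.25 ± 1.00 SE, adjusted p = 0.0403), 11.2-fold for S100a10 (3.48 ± 0.73, adjusted p = 0.00734) and 8.00-fold for S100a11 (3.00 ± 0.43, adjusted p = 0.00122; edgeR quasi-likelihood test, Benjamini-Hochberg over 8899 genes, 3 runs per group).

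S100a14 stood at 257.2, 161.6 and 129.9 CPM in RFP+ and at 34.7, 23.8 and 0.0 in RFP- luminal-like AP cells (log2 difference 2.94 ± 0.59 SE, edgeR adjusted p = 0.00599). S100a16 stood at 248.8, 189.3 and 174.3 against 75.1, 63.1 and 17.6, the smallest difference of the 7 (1.80 ± 0.39, edgeR adjusted p = 0.00839). For both genes the groups did not overlap, and the RFP- value of run 3 was the lowest. S100a1 was at 216.0, 204.4 and 204.1 against 45.6, 41.9 and 31.1 (2.27 ± 0.19, edgeR adjusted p = 0.000241), and S100a13 at 42.3, 73.0 and 79.6 against 6.2, 8.3 and 6.8 (3.02 ± 0.32, edgeR adjusted p = 0.000375). Of the 7 members tested, 7 were called higher in RFP+ cells, where 13.4% of all 8899 genes tested were called higher and 25% were called in either direction. Their median log2 difference was 3.00, and that of all genes was -0.01. With the run as a block, which pairs sums from the same pool of mice, 7 were again called, where 36.3% of genes were.

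**Figure D2:**
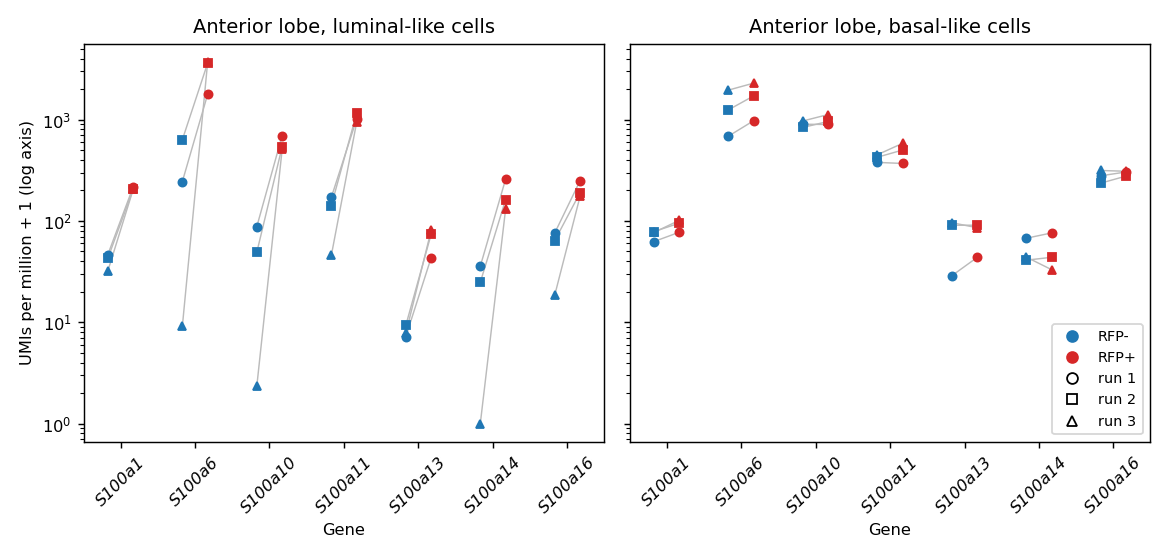
Levels of 7 S100 genes in RFP- (blue) and RFP+ (red) cells of the anterior lobe, luminal-like on the left and basal-like on the right. The vertical axis is CPM plus 1 on a log scale, and grey lines join the sums of a run. In luminal-like cells every line goes up, and S100a6, S100a10 and S100a14 of run 3 start at 8.1, 1.4 and 0.0 CPM. In basal-like cells the groups overlap.

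The make-up of the luminal-like cells moved with RFP in the same lobe. Lum-D-like cells were 182 of 210 (86.7%), 80 of 98 (81.6%) and 128 of 145 (88.3%) RFP+ luminal-like AP cells in runs 1, 2 and 3, and 4 of 76, 7 of 147 and 0 of 44 RFP- cells. The RFP- sum of run 3, the one with no Lum-D-like cell, had the lowest level of 6 of the 7 members, and S100a13 was the exception. With the Lum-D-like cells left out, an alternative chosen after seeing the data, 0 of 6 members tested and 0 of 6019 genes passed edgeR's test (6 members had an unadjusted p under 0.05), and all 6 members stayed higher in RFP+ cells, by log2 differences of 1.01 for S100a16 to 3.69 for S100a6 (adjusted p 0.0967 to 0.511). These sums were small, with 28, 18 and 17 RFP+ cells, and in them S100a6 stood at 228.9, 357.3 and 593.6 CPM in RFP+ and at 81.5, 9.63 and 6.51 in RFP- cells. Without run 2, 3 of the 7 members were called (S100a1, S100a11 and S100a13).

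Within Lum-D-like cells of RFP+ AP, S100a6 stood at 2105, 5077 and 4376 CPM, S100a11 at 1203, 1582 and 1094 and S100a10 at 808.4, 716.5 and 592.9. The 17 Lum-D-like cells among RFP+ luminal-like DLP cells of run 3 had levels of the same order, with S100a6 at 2739, S100a11 at 737.0 and S100a10 at 564.9. Outside the Lum-D-like class, the 11 RFP+ Lum-A-like AP cells of run 2 had 600.9 S100a6 CPM and the 20 RFP- Lum-A-like AP cells of that run 7.95. These are single sums of few cells and carry no test.

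In luminal-like cells of the VP, S100a6 was at 135.6, 178.0 and 45.3 CPM in RFP+ and at 68.8, 43.1 and 8.5 in RFP- sums, so that the groups overlapped (log2 difference 1.54 ± 0.61 SE, edgeR adjusted p = 0.721). With the run as a block the difference was 1.67 and passed (edgeR adjusted p = 0.00119), where 1.81% of genes were called. Without the block, the S100a6 difference turned to -0.50 with Lum-D-like cells left out and to -2.02 with HTODemux, another way of assigning lipid barcodes (edgeR adjusted p 0.926 and 1). S100a11 was at 270.5, 198.7 and 226.1 against 203.7, 111.7 and 186.4, and S100a1 at 99.0, 89.9 and 89.4 against 71.6, 84.1 and 103.4. Both overlapped. None of the 7 members tested was called by edgeR (0, with 1 at an unadjusted p under 0.05 and 0 by DESeq2), where 0.289% of 7958 genes were called. Lum-D-like cells were 6 of 51, 6 of 183 and 7 of 146 of the RFP+ cells here, and 2 of 10, 0 of 66 and 0 of 45 of the RFP- cells. The RFP- sum of run 1, where S100a6 was at 68.8, thus held no more than the 10 cells needed for a sum.

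In basal-like cells of the AP, the members were abundant in both gates. S100a6 was at 975.1, 1713 and 2290.5 CPM in RFP+ and at 685.3, 1247 and 1954 in RFP- sums (log2 difference 0.31 ± 0.40 SE, edgeR adjusted p = 1). In each run the RFP+ value was the higher, and with the run as a block the difference of 0.34 passed (edgeR adjusted p = 0.0175), where 0.454% of genes were called. Without the block it was -0.0588 with S100 genes kept in clustering and -0.0014 with no integration of the runs (edgeR adjusted p = 1 in both). S100a10 was at 894.1, 959.1 and 1122 against 899.9, 835.5 and 968.9, and S100a16 at 303.5, 276.4 and 308.4 against 278.1, 235.3 and 313.8, with overlapping groups. Of the 7 members tested, 0 were called by edgeR (0 at an unadjusted p under 0.05, 0 by DESeq2), where 0% of 7714 genes were called.

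The difference between these RFP differences was tested directly. For Runx1 itself it was 1.86 between luminal-like AP and luminal-like VP cells (edgeR adjusted p = 0.0621). Between luminal-like and basal-like AP cells it was 2.61 (edgeR adjusted p = 0.024), so the gates were not equally separated in Runx1. The RFP difference was larger in luminal-like AP than in luminal-like VP cells for S100a1 (by 2.26 ± 0.24 SE on the log2 scale, edgeR adjusted p = 0.000339), S100a13 (3.05 ± 0.43, edgeR adjusted p = 0.00216), S100a11 (2.61 ± 0.53, edgeR adjusted p = 0.0131) and S100a10 (3.16 ± 0.85, edgeR adjusted p = 0.0452), 4 of 7 members where 5.56% of 9692 genes were called. For S100a6 it was 1.73 ± 1.32 and did not pass (edgeR adjusted p = 0.528). Between luminal-like and basal-like AP cells, 6 of 7 members passed where 6.21% of 9486 genes were called, with differences from 1.72 for S100a16 to 3.37 for S100a10 (edgeR adjusted p 0.00124 to 0.0449), and S100a6 at 2.90 ± 1.17 did not (edgeR adjusted p = 0.171). With the run as a block, S100a6 passed in the latter (2.88, edgeR adjusted p = 0.0481), and 6 and 7 members were called in the 2 tests, where 13.4% and 15% of genes were. Both tests use the luminal-like AP sums, and 0 members were called by edgeR in either once run 2 was left out, or once Lum-D-like cells were, where 0.252% and 0.2% of genes were called (with 6 and 7 members at an unadjusted p under 0.05 in both cases).

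**Figure D3:**
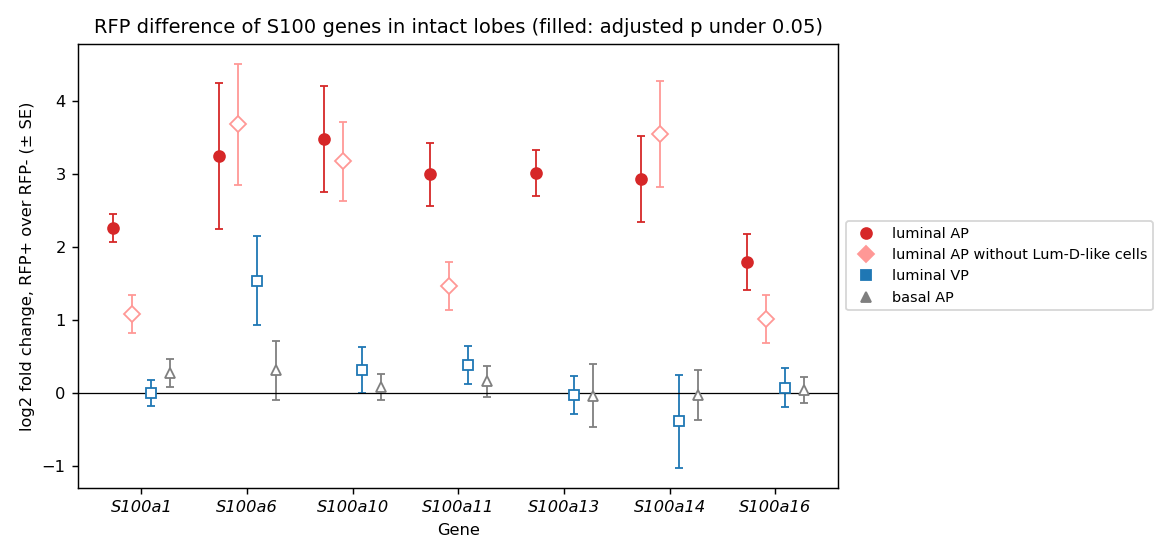
RFP difference of 7 S100 genes, with the log2 fold change of RFP+ over RFP- on the vertical axis, bars of 1 SE, and filled markers for an edgeR adjusted p under 0.05. Luminal-like AP cells (red circles) lie between 1.80 and 3.48 and are filled. The same cells without the Lum-D-like class (open diamonds) lie between 1.01 and 3.69, and VP (blue squares) and basal-like cells (grey triangles) are open and near 0 except S100a6 in VP at 1.54.

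Lobes were then compared within a gate. Among RFP+ luminal-like cells, 7 of 7 members were higher in AP than in VP, where 29.9% of 9511 genes were called in either direction. The log2 differences were 4.63 for S100a6, 3.60 for S100a14, 2.70 for S100a10, 2.12 for S100a11, 1.62 for S100a13, 1.13 for S100a1 and 0.85 for S100a16 (edgeR adjusted p 0.000409 to 0.0494). The values behind S100a6 were those given above, 1778 to 3697 CPM in AP and 45.3 to 178.0 in VP. With the run as a block 7 were again called, where 41.5% of genes were. Without Lum-D-like cells, 3 members were called higher in AP, where 9.31% of genes were called (S100a6 by 4.57, S100a14 by 1.87 and S100a10 by 1.25 on the log2 scale), and S100a1, S100a13 and S100a16 turned to -0.17, -0.13 and -0.42. In the 65 RFP+ luminal-like DLP cells of run 3, the only run that has them, S100a6 was at 522.5, between the VP and AP ranges, and S100a11 was at 236.7, inside the VP range.

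Among RFP- luminal-like cells, the calcium-handling member S100a1 was lower in AP (45.6, 41.9 and 31.1 CPM) than in VP (71.6, 84.1 and 103.4), a log2 difference of -1.13 ± 0.21 SE (edgeR adjusted p = 0.00506). S100a13 was lower as well, at 6.2, 8.3 and 6.8 against 13.8, 17.7 and 27.1 (-1.43 ± 0.33, edgeR adjusted p = 0.0163). The groups did not overlap for either gene, and 2 of 7 members were called where 15.8% of 7234 genes were. S100a6 went the other way in value, with 243.6, 632.2 and 8.1 against 68.8, 43.1 and 8.5 (2.90 ± 1.05, edgeR adjusted p = 0.0931). Lum-D-like cells were 4 of 76, 7 of 147 and 0 of 44 cells of these AP sums, and 2 of 10 cells of the run 1 VP sum. Without them S100a6 was at 81.5, 9.63 and 6.51 in AP and, in runs 2 and 3, at 33.8 and 6.59 in VP. With the run as a block, S100a6 was called higher (2.67, edgeR adjusted p = 0.00474) and S100a1, S100a13 and S100a16 lower, where 18.1% of genes were called, and without Lum-D-like cells 4 members were called lower (S100a1, S100a10, S100a13 and S100a16), where 15.1% of genes were called. Without run 1, 2 or 3 the calls were 1, 0 and 1, the last being S100a6.

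Between RFP- luminal-like cells of AP and DLP, 0 of 7 members were called by edgeR (2 at an unadjusted p under 0.05, 0 by DESeq2), where 0.851% of 7990 genes were. S100a6 was at 549.9, 543.9 and 19.0 CPM in DLP, so that run 3 was low in both lobes. Lum-D-like cells were 8 of 25, 7 of 66 and 0 of 75 of these DLP cells. With the run as a block, 4 members were lower in AP, where 7.07% of genes were called, by log2 differences of -0.96 for S100a1, -0.79 for S100a16, -0.78 for S100a11 and -1.47 for S100a10.

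In RFP+ basal-like cells, S100a6 was at 975.1, 1713 and 2290.5 CPM in AP and at 383.9 and 417.5 in VP, where runs 1 and 2 alone reached 10 cells. The groups did not overlap, and the log2 difference was 1.82 ± 0.38 SE with an unadjusted p of 0.001, but with 8599 genes tested its edgeR adjusted p was 0.809. It passed with the run as a block (1.49, edgeR adjusted p = 4.97e-13, where 1.28% of genes were called), a fit in which 1 residual degree of freedom was left to the sums themselves. It also passed without run 1, but VP was then 1 sum of 29 cells, assumed to vary like the AP sums. No member was called by edgeR (0 of 7, with 1 at an unadjusted p under 0.05 and 0 by DESeq2), where 0% of genes were. S100a6 in RFP- basal-like cells was at 388.4, 303.5 and 820.2 in DLP and at 260.6 and 559.6 in VP.

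The proteins that S100 members dock onto were read from a list of 16 binding partners and receptors. In luminal-like AP cells, 12 of them were tested between RFP+ and RFP- cells and 5 were called higher, where 13.4% of genes were called higher. These were Ahnak (log2 difference 3.23) and Anxa2 (3.11), both of which bind S100A10, Anxa1 (2.73), which binds S100A11, Tlr4 (1.65), the receptor of S100A8 and S100A9, and Anxa5 (1.14). Anxa6 was called lower (-0.97). Cacybp (-0.02) and Sugt1 (-0.20), whose products bind S100A6, were not called, nor was Myh9 (0.01), whose product binds S100A4, and Fgf1, which S100A13 helps to release, stood at -0.64. Of the list, 0 of 13 tested in luminal-like VP cells and 0 of 11 in basal-like AP cells were called between the gates by edgeR (4 and 1 at an unadjusted p under 0.05), where 0.289% and 0% of all genes were called. Between AP and VP in RFP+ luminal-like cells, 5 of 14 partners tested were called, where 29.9% of all genes were, with Ahnak, Anxa2, Fgf1 and Tlr4 higher in AP and Trpv6 lower.

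Castration was measured in run 2 alone, with 1 pool of mice in each arm, so its values are ratios with 95% counting intervals and no test. The question was how the members differ after androgen withdrawal in each sorted population. The paper reports a larger share of RFP+ epithelial cells after castration, so a gate need not hold the same cells in both arms. Runx1 itself had castrated-to-intact ratios from 0.725 in luminal-like AP RFP+ cells to 4.22 in basal-like VP RFP+ cells. In luminal-like AP RFP+ cells (191 castrated, 98 intact), S100a6 was at 3613 CPM in intact and 566.8 in castrated mice, a ratio of 0.157 (0.149 to 0.165). S100a10 was at 539.0 and 85.1 (0.158, 0.138 to 0.180) and S100a14 at 161.6 and 26.8 (0.166, 0.130 to 0.210). S100a13 (0.274) and S100a1 (0.362) were also past 2-fold lower, while S100a11 (0.625) and S100a16 (0.577) were not. In this population 5 of 7 members were past 2-fold lower, where 10.8% of 10606 genes were.

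Luminal-like cells of castrated AP RFP+ were mostly of another class than those of intact mice. Lum-E/F-like cells were 159 of 191 (83.2%) and Lum-D-like cells 16 of 191 (8.38%) in castrated mice, against 80 Lum-D-like cells of 98 in intact mice of the same run. Within Lum-D-like AP RFP+ cells (16 castrated, 80 intact), the ratio of S100a6 was 0.878 (0.819 to 0.941), of S100a10 0.860, of S100a11 0.994, of S100a14 1.09 and of S100a16 0.886. S100a1 was the one member past 2-fold lower there, at 0.434 (0.274 to 0.659), where 15.7% of genes were past 2-fold lower. Lum-A-like AP RFP+ cells (11 castrated, 11 intact) had other ratios, with S100a6 at 0.0272 (0.0099 to 0.0601, on 6 and 232 UMIs), S100a10 at 0.221 (0.120 to 0.383) and S100a11 at 0.650 (0.473 to 0.887). S100a14 had 0 UMIs in the castrated and 12 in the intact cells, a ratio of at most 0.378, and S100a13 had 1 and 13. The ratios over all luminal-like cells and those within a class are thus measures of different cells.

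In the other 5 populations 6 of the castrated-to-intact ratios of members were past 2-fold, all lower. They were S100a10 in luminal-like AP RFP- cells (0.445), S100a6, S100a10 and S100a14 in luminal-like DLP RFP- cells (0.458, 0.184 and 0.170, over 21 castrated cells), S100a6 in luminal-like VP RFP+ cells (178.0 in intact and 73.6 in castrated mice, 0.413) and S100a1 in basal-like AP RFP+ cells (94.0 and 45.8, 0.487). S100a11 was higher in value in castrated VP RFP+ luminal-like cells, at 198.7 and 368.2 (1.85, 1.69 to 2.03). S100a6 in basal-like AP RFP+ cells had a ratio of 1.26 (1.19 to 1.34), and no member was past 2-fold in basal-like VP RFP+ cells. The luminal-like class mix differed between the arms here too. Lum-E/F-like cells were 71.4% of castrated AP RFP-, 66.7% of castrated DLP RFP- and 83.2% of castrated VP RFP+ luminal-like cells, against 0%, 1.52% and 0.546% in intact mice, where Lum-B-like cells were 81% of AP RFP- and Lum-A-like cells 93.4% of VP RFP+. Lum-D-like cells were 7 of 147 intact AP RFP-, 7 of 66 DLP RFP- and 6 of 183 VP RFP+ cells. Without them, S100a10 in AP RFP- fell from 168 to 40 UMIs and S100a6 in VP RFP+ from 826 to 147. In DLP RFP-, S100a6 fell from 711 to 109, S100a10 from 203 to 54 and S100a14 from 40 to 3. Lum-D-like cells were left out of the intact sums alone, and castrated sums kept theirs (13 of 125 in VP RFP+). The intact levels left were also on another scale than the castrated ones. Whether the members differ between the arms without Lum-D-like cells was therefore not tested. The shares of all genes past 2-fold lower were 10.8%, 11.9%, 10.3%, 8.15% and, in basal-like VP RFP+ cells, 11.7%. In luminal-like VP RFP+ cells the result depended on the scale: without TMM, by plain CPM, the median of all genes moved from -0.01 to 0.92 on the log2 scale, 4 members came out past 2-fold higher (S100a1 at 2.94, S100a11 at 3.52, S100a13 at 2.86 and S100a16 at 2.33) and S100a6 was at 0.785. The call of S100a6 was also lost with HTODemux rerun, with S100 genes kept in clustering and with no integration (0 members past 2-fold lower in each, and 1 past 2-fold higher in the last pair). S100a1 in basal-like AP RFP+ cells was likewise not past 2-fold in that pair. Its ratio lay close to the limit, for the same cells scaled among sums of single classes gave 0.509, not past 2-fold.

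**Figure D4:**
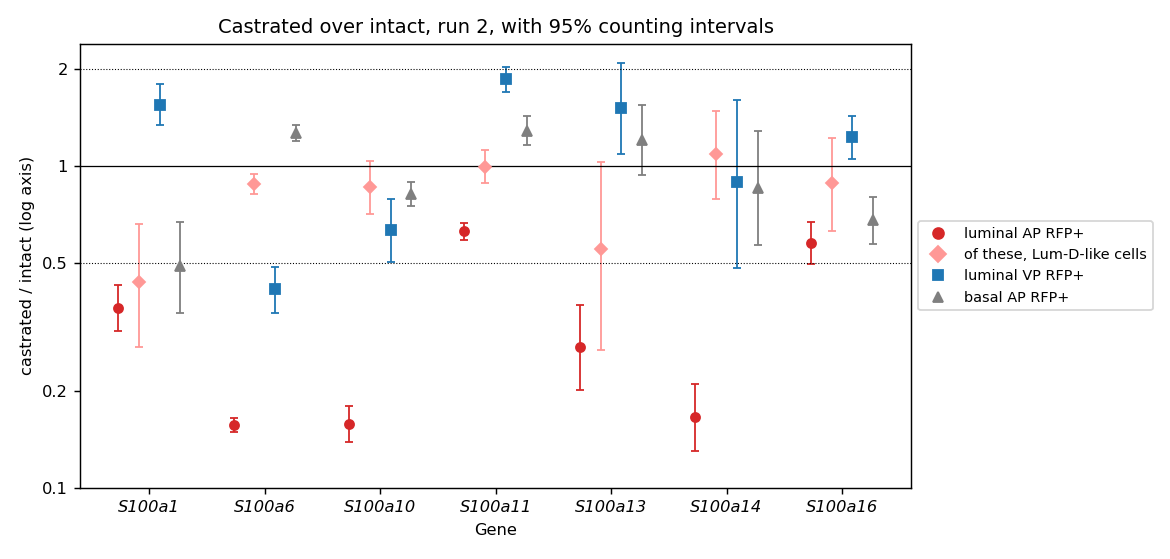
Castrated over intact ratio of 7 S100 genes in run 2 on a log axis, with 95% counting intervals and dotted lines at 2-fold. In luminal-like AP RFP+ cells (red circles) S100a6, S100a10 and S100a14 lie at 0.157 to 0.166, and in the Lum-D-like cells among them (pink diamonds) at 0.860 to 1.09.

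In the explants, days had 1 pool each and carry no test. The prostatic epithelium-like cells numbered 461, 437, 935 and 1962 on days 0, 1, 3 and 6 and hold the urogenital sinus epithelium and the buds that grow from it under DHT. They include a sub-cluster led by Psca and Upk3a, with a marker of another class among its leading genes, which was 82.4% of day 1 cells. They leave out a cluster of 245 cells with Spink5, Psca, Nupr1, Ly6d and Krt4 among its leading genes. By its marker score that cluster was named hypoxic or stressed, though none of its leading genes was a marker of that class. S100a10 was higher at each later day, at 282.2, 531.2, 652.6 and 780.9 CPM, and its day 6 to day 0 ratio was 2.77 (95% counting interval 2.67 to 2.87). S100a1 was lower at each later day, at 18.5, 12.0, 8.82 and 7.76 (0.419, 0.346 to 0.507). S100a14 was at 176.3, 180.8, 92.6 and 92.2 (0.523) and S100a16 at 321.3, 297.3, 201.0 and 220.2 (0.685). S100a10 and S100a1 were the 2 members past 2-fold, where 20.6% of 14148 genes were.

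S100a6 and S100a11 had day 6 to day 0 ratios of 1.10 (1.06 to 1.14) and 0.980 (0.953 to 1.01) as means over these cells. Over all explant cells (701 on day 0 and 2470 on day 6), S100a6 was at 335.3 and 737.2, a ratio of 2.20 (2.14 to 2.26), and S100a1 had a ratio of 0.745, so that the result for both depended on which cells were summed. S100a6 was at 319.5, 424.6, 452.7 and 351.3 and S100a11 at 569.9, 715.4, 512.3 and 558.5. S100a13 stayed between 11.1 and 15.0, S100a4 between 1.04 and 1.53, and S100a8 and S100a9 near 0. S100g, a family member outside the 10 that binds calcium in the cytosol of absorptive epithelia, went from 5.37 to 0.108.

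The S100a6 mean of a day was made of sub-clusters with unlike levels. The sub-cluster of 824 cells led by Ly6a, Ly6c1 and S100a6 itself had 1275 S100a6, 1116 S100a10 and 1064 S100a11 CPM. The sub-clusters of 1007 cells led by Kcne1l and Cxcl10 and of 567 cells led by Krt23 and Mest had 30.4 and 51.8 S100a6. The Ly6a sub-cluster was 8.70%, 35.9% and 22.9% of the cells on days 1, 3 and 6, with S100a6 at 1321, 1185 and 1402. The Kcne1l sub-cluster was 49.7% of day 6, with S100a6 at 31.2. On day 0, 90.5% of cells were in a sub-cluster that had S100a6 at 324.4 on that day. S100 genes were left out of this clustering too, but the sub-clusters come from the same cells, so the levels are a description.

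**Figure D5:**
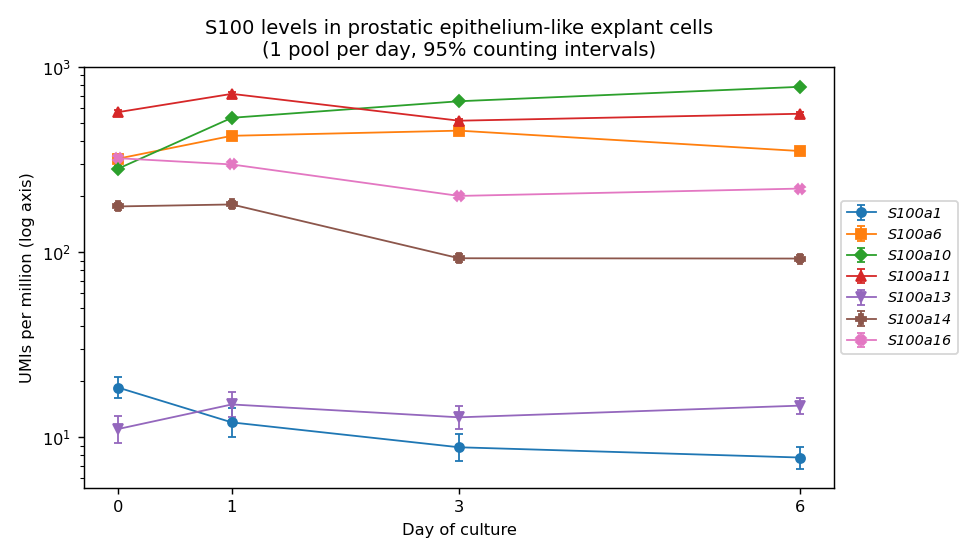
Levels of 7 S100 genes in prostatic epithelium-like explant cells by day of culture (horizontal axis, days), in CPM on a log axis, with 1 pool per day and 95% counting intervals. S100a10 goes from 282.2 to 780.9, S100a1 from 18.5 to 7.76, and S100a6 and S100a11 end close to where they began.

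Lastly, the genes most like each member were named by Pearson correlation of log2 levels over 30 intact sums of a run, lobe, gate and compartment, among 2250 genes of at least 50 CPM. The sums share runs, pools and the split into basal-like and luminal-like cells, so the values are a description. S100a10 and S100a16 had the same 3 nearest genes, Rbpms (0.97 and 0.95), Rbms1 (0.97 and 0.97) and Mgst1 (0.95 and 0.96). Their correlation with each other was 0.97, and they lie in the 2 separate stretches of the chromosome. S100a11 was most like Cd9 (0.91), Ahnak (0.91) and Anxa2 (0.90), and S100a6 most like Ahnak (0.89), Tnfaip8 (0.88) and Runx1 (0.84). S100a1 was most like Sptssa (0.84), Sox9 (0.82) and Klf5 (0.80), and its correlation with S100a10 was 0.41. The correlation of S100a6 with S100a11 was 0.85. The other 5 members were below the level asked for.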

How the data were processed

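Single-cell libraries of EPCAM+ cells from 3 adult runs and 1 explant series were analysed. The authors aligned reads and counted UMIs per gene with Cell Ranger 3.1.0 on mm10 and worked in Seurat 3.1.5, per the submitters' processing notes, and the deposited values are raw UMI counts per gene and cell beside counts of lipid barcodes. Here cells were assigned to a population by the deposited lipid barcode counts, with the thresholds of the study's barcode sheet, and kept with more than 750 and fewer than 7500 genes and under 10% mitochondrial UMIs (explants more than 1000 genes and under 7.5%). The paper words the upper limit of 7500 as UMIs, which was tried as an alternative. That reading kept 615, 1520 and 568 cells of the 3 adult runs, where the limit on genes kept 1891, 4398 and 2243. Barcode doublets were removed by this assignment, and no doublet caller was applied except in an alternative. Cells were clustered with Seurat 5.3.0 after integration of the runs, without S100 genes, and clusters were called X-like from marker lists. An adult cluster led by markers of another class was left unnamed. In the explants such sub-clusters were kept among the prostatic epithelium-like cells. They were a sub-cluster of 427 cells led by Psca and Upk3a, which was 82.4% of day 1 cells, and another of 267 cells led by Trib3.

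Counts were summed over the cells of a run, lobe, gate and compartment (at least 10 cells). Sums were tested with edgeR 4.0.16 (quasi-likelihood, TMM, filterByExpr, Benjamini-Hochberg over all genes tested), and a gene was called at an adjusted p under 0.05. The standard error was taken from the F statistic. Genes with at least 10 UMIs in 2 unreplicated sums were counted as past 2-fold, with exact 95% intervals that cover counting error only. DESeq2 1.42.0, other scalings, filters, cluster settings, doublet removal by Scrublet and left-out runs were tried as alternatives, and the test was checked on simulated data. The members, the partner list and the cell type markers were chosen with earlier results of these data known. The genes named are the 10 members, the listed partners and the genes whose levels were most like a member's.

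Sums of the same run came from the same pool of mice, so runs pair the groups. The deviations of same-run sums from their group means correlated at 0.0237 to 0.672 over 20 pairs, with 19 over 0.1. The p-values measure the spread between 3 runs. Promoter windows are RefSeq sequence; entries for S100a10 and S100a14 and protein sequences were not used here.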

Additional observations from a re-analysis of the deposited data

Results flagged for a closer look

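The RFP difference was not the same in all tissues, and the difference itself passed a test for 10 values (4 of 7 members where 5.56% of all genes passed, and 6 of 7 where 6.21% did). Without run 2, 0 passed in both tests. Luminal-like AP cells had a larger RFP difference than luminal-like VP cells by 2.26 on the log2 scale for S100a1, 3.05 for S100a13, 2.61 for S100a11 and 3.16 for S100a10 (edgeR adjusted p 0.000339 to 0.0452). They had a larger one than basal-like AP cells by 1.95 for S100a1, 3.02 for S100a13, 2.93 for S100a14, 1.72 for S100a16, 2.80 for S100a11 and 3.37 for S100a10 (edgeR adjusted p 0.00124 to 0.0449). Lum-D-like cells were 81.6% to 88.3% of RFP+ luminal-like AP cells and 3.28% to 11.8% of RFP+ luminal-like VP cells. With them left out, 0 members were called by edgeR in both tests, where 0.252% and 0.2% of genes were called, while 6 and 7 members had an unadjusted p under 0.05 and the median differences of the members were 2.42 and 1.99 on the log2 scale.

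S100a4, which is at or near 0 in the epithelium, had a mean of 215.9 CPM in the hematopoietic-like cells that were set aside, with 265.8, 329.4 and 52.6 in the 3 runs. Run 3 had 10 such cells and run 2 had 252.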

How the results depend on the processing

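Leaving out the Lum-D-like cells, an alternative added after seeing the data, moved the S100 calls in several comparisons. It left 0 of the 6 members then tested called by edgeR between RFP+ and RFP- luminal-like AP cells (0% of all genes, 6 members at an unadjusted p under 0.05, log2 differences 1.01 to 3.69), 0 in both tests of the difference between RFP differences (0.252% and 0.2% of all genes), 3 between AP and VP in RFP+ luminal-like cells and 4 in RFP- luminal-like cells. Under it S100a6 in luminal-like VP cells turned to -0.50 on the log2 scale, S100a11 between AP and DLP to 0.0305, and S100a1, S100a13 and S100a16 between AP and VP in RFP+ cells to -0.17, -0.13 and -0.42. These sums held fewer cells.

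With the runs as a replicate block, 1 member each was called in luminal-like VP cells, basal-like AP cells and RFP+ basal-like cells between AP and VP (S100a6 in each), and 4 each between AP and VP and between AP and DLP in RFP- luminal-like cells. The block kept 7 calls in luminal-like AP cells and 7 between AP and VP in RFP+ luminal-like cells, and gave 6 and 7 in the tests of the difference. Leaving out 1 run at a time gave 3 to 7 calls in luminal-like AP cells, 0 to 1 between AP and VP in RFP- luminal-like cells (without run 3 the call was S100a6, in the other direction), 0 to 1 in RFP+ basal-like cells, and 0 to 6 and 0 to 5 in the tests of the difference. Run 2 gave the lowest count in luminal-like AP cells, in RFP- cells and in the tests of the difference when it was left out.

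Without the low-count filter, 1 member was called in luminal-like VP cells, 4 between AP and VP in RFP- luminal-like cells and 1 in RFP+ basal-like cells. The last comparison also had 1 call with the top 5% of Scrublet scores removed, with S100 genes kept in clustering and with unnamed Epcam+ clusters counted. Between AP and VP in RFP- luminal-like cells, 1 call was left with HTODemux rerun, with S100 genes kept in clustering and with no integration. HTODemux left 2 calls in the test against basal-like cells and turned S100a6 in luminal-like VP cells to -2.02. S100a6 in basal-like AP cells turned to -0.0588 with S100 genes kept and to -0.0014 with no integration. With the upper limit of 7500 read as UMIs per cell, 6 castration ratios were past 2-fold over 3 populations, and tests that need luminal-like VP cells could not be run. The cause of these changes was not tested.

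Of the counts of members recomputed under an alternative, 153 stayed within 1.5 times the main count, 16 were lower, 13 were higher and 1 turned direction. Counting error was small for abundant members, while S100a8 and S100a9 were too rare for a comparison at this depth.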

Other observations

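Lum-E/F-like cells, the luminal-like class that came mostly from castrated mice, did not have a single S100a6 level. In the clustering of all adult cells the class held 2 clusters, 353 cells led by Pnliprp2, Aldh1a3 and Arl14 with S100a6 at 798.2 CPM, and 121 cells led by Ang5, Ang4 and Ang2 with S100a6 at 82.8. In castrated mice of run 2, S100a6 stood at 1197 CPM in the 128 cells of DLP RFP+, 358.6 in the 159 cells of AP RFP+, 65.5 in the 104 cells of VP RFP+ 489.0 in the 14 cells of DLP RFP- and 50.8 in the 35 cells of AP RFP-. S100a11 had the same order among the 3 RFP+ lobes, at 1222, 715.6 and 332.4, and S100a10 was at 303.5, 52.1 and 33.2. S100a1, by contrast, was at 108.6, 69.1 and 140.3. The castrated Lum-D-like cells differed by lobe as well, with S100a6 at 4460 in 16 AP RFP+ cells and 235.6 in 13 VP RFP+ cells. Each value is 1 sum from 1 pool and carries no test.

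Among the cells set aside, fibroblast-like cells had S100a13 at 83.1, 147.1 and 450.2 CPM in runs 1, 2 and 3, a range that overlapped with basal-like cells (40.8, 87.2 and 100.4). S100a16 in hematopoietic-like cells, at 64.4, 35.9 and 115.8, lay below the basal-like range of 273.4 to 343.3. Of the family members outside the 10, S100a3 was near 0 in intact basal-like cells (2.11 ± 1.38, SD, n = 3 runs) and at 99.0 in the 11 intact Lum-E/F-like cells of run 3.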
